A study of Mus musculus with 6 samples.

Results

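The genes examined here build cholesterol and fatty acids under the control of the sterol regulatory element binding proteins (SREBPs). They were a named list of 35 genes, 22 of the sterol arm and 13 of the fatty acid arm, and all 35 were found by gene symbol among the 14254 genes of the expression table. The measurements are RNA sequencing of organoids, clusters of tumour cells grown in gel, from the mouse pancreatic ductal adenocarcinoma line KPF_5.3G. In the knockdown organoids (label shJag1_3, genotype label Jag1 knockdown, 3 libraries) a lentiviral short hairpin RNA, the hairpin numbered 3, targeted Jag1, which encodes a Notch ligand. In the controls (label shCtrl, genotype label WT, 3 libraries) the hairpin was a control. All organoids grew in advanced DMEM/F12 with B27, nicotinamide, N-acetylcysteine, Primocin, gastrin, FGF-10 and EGF, plus medium conditioned with R-spondin-1 and with Noggin. The stated purpose was to learn the part of Jag1 in CD9-high tumour-initiating cells of a hybrid epithelial-mesenchymal state, and these libraries model it with a single line and a single hairpin. Values are normalised read counts, which are reads divided by a size factor of the library, and n = 3 libraries per group throughout. Log2 differences are Jag1 knockdown minus control.

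Cells make cholesterol from acetyl-CoA through mevalonate, squalene and lanosterol. When sterols in the endoplasmic reticulum run low, the escort protein SCAP carries the SREBPs to the Golgi, where proteases release the part that enters the nucleus, and INSIG proteins hold SCAP back when sterols are plentiful. SREBP-2, the product of Srebf2, is best known for sterol genes, and SREBP-1, from Srebf1, for fatty acid genes, and both are known to work at promoters together with the factor NF-Y, which binds the CCAAT box. Tumour cells of epithelial origin often make fatty acids themselves for their membranes.

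Promoter windows of the RefSeq table (build GRCm38.p6, 250 bases before to 50 bases after a start site) were held for 18 sterol genes and 10 fatty acid genes. A sterol regulatory element, spelled TCACNCCAC and searched on both strands, stood in 1 of these 28 genes, Hmgcs1. By window this is 4.76% of 21 sterol windows and 0% of 14 fatty acid windows, against 1.24% of the 32851 windows of the table. Only this exact spelling was searched, so an element with other letters or outside the window would be missed. The letters CCAAT, on either strand, stood in at least 1 window of 17 of the 18 sterol genes and of 7 of the 10 fatty acid genes. By window this is 81.0% of 21 sterol windows and 57.1% of 14 fatty acid windows, against 37.4% of all windows. The GC box GGGCGG, likewise on either strand, stood in at least 1 window of 17 of the 18 sterol genes and 6 of the 10 fatty acid genes. By window this is 85.7% and 57.1%, against 35.7% of all windows, so it was about as frequent here as CCAAT. A match of letters is a description and not a measured binding site. The windows below are shown on the gene's strand, 5′ to 3′, because they are the promoter with both motifs (Hmgcs1, chr13:119690101-119690400, plus strand), the sterol promoters of Lss (chr10:76531355-76531654, plus strand), Insig1 (chr5:28071162-28071461, plus strand) and Msmo1 (chr8:64733529-64733828, minus strand), and that of Fasn (chr11:120824498-120824797, minus strand), whose values did not follow the sterol genes. Capitals mark TCACNCCAC and CCAAT, and CCAAT also as its reverse complement.
Hmgcs1: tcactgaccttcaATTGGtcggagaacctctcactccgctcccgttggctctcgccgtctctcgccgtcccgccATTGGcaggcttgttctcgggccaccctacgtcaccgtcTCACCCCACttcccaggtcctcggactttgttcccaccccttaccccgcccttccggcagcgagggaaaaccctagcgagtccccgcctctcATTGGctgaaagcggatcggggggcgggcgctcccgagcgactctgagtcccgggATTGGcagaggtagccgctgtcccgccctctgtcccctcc
Lss: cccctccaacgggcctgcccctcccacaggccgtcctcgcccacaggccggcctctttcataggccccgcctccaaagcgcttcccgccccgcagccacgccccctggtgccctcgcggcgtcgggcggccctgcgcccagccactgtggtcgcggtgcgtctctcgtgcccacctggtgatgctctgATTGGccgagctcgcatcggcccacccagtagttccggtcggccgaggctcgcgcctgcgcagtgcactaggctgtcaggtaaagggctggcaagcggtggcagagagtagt
Insig1: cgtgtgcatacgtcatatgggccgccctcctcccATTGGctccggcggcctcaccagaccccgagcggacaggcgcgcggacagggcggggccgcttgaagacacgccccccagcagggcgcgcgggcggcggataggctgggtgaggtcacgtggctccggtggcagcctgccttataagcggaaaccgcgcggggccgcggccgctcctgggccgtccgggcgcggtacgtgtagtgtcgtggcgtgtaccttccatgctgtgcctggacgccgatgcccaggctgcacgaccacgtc
Msmo1: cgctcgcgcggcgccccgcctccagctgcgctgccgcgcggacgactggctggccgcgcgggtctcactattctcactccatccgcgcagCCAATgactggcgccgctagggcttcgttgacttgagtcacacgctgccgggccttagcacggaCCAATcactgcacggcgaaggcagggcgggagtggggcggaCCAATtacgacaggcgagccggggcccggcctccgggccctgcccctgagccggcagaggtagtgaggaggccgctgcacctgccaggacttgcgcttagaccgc
Fasn: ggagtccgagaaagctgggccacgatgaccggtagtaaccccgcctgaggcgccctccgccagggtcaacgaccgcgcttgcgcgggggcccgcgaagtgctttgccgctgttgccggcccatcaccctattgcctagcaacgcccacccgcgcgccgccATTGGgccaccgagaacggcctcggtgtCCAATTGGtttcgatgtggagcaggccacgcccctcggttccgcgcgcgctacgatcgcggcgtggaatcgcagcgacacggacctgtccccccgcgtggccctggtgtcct
The element in Hmgcs1 reads TCACCCCAC and begins at position -137 counted from the start site. Fasn holds CCAAT 3 times, and its 2 copies nearest the start share 2 letters.

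The libraries held 23219455 to 35172593 reads in the Jag1 knockdown and 22268997 to 30515717 reads in controls. Jag1 itself had 226, 321 and 557 normalised counts in knockdowns 1, 2 and 3, against 412, 983 and 847 in controls 1, 2 and 3, so each knockdown lay below its own control although the groups overlapped (log2 difference -1.03, SE 0.45, adjusted p = 0.691 in limma). The two-sided exact permutation p was 0.2, and with 3 libraries a group it cannot be under 0.1. DESeq2 with the replicate number in the model called it (-1.02, SE 0.27, adjusted p = 0.00628). Both libraries numbered 1 stood apart from the other 4 over the whole table: their deviations from the group means correlated with each other at r = 0.68. With those of the other group's libraries 2 and 3 they correlated at r = -0.63 to -0.45. Deviations from a mean of 3 libraries sum to 0 for each gene, so these negative values follow in part from the positive one. Libraries with the same number are set against each other as pairs below. An SE given with no other fit named is from limma without the replicate number. It therefore includes the spread between replicate numbers. With that number in the model limma gave smaller SEs for the members, for example 0.17 against 0.50 for Dhcr7. Epithelial markers (5 of 5 listed) summed to 170388, 456959 and 275989.8 normalised counts in knockdowns 1, 2 and 3, against 127288, 174299.5 and 152716 in controls 1, 2 and 3, which is 134%, 262% and 181% of control in pairs 1, 2 and 3. Krt18 was lower in knockdown 3 (61007) than in control 3 (63303.6), and it was higher in pairs 1 and 2. Epcam, Cdh1, Krt8 and Krt19 were higher in the knockdown of each pair. Of the other cell types, 2 of 7 fibroblast markers were listed and summed to 28.9 to 45.5 in the knockdown and 35.6 to 44.8 in controls. Tek was the 1 endothelial marker of 5 (6.14 to 54.4 in the knockdown, 6.23 to 62.1 in controls) and Cela1 the 1 acinar marker of 6 (6.14 to 47.4 and 8.72 to 39.8). By symbol, 0 of 5 endocrine and 0 of 5 adipocyte markers were matched. The 1 listed immune marker of 6, Cd68, had 117, 988 and 400 in knockdowns 1, 2 and 3 and 98.6, 136 and 111 in controls 1, 2 and 3. Mitochondrial reads were 0.555%, 1.02% and 1.20% of gene reads in knockdowns 1, 2 and 3, against 0.595%, 1.55% and 2.03% in controls 1, 2 and 3. The epithelial sum, Cd68 and the mitochondrial share thus all differed most in pairs 2 and 3, like the sterol genes below. The epithelial sum and Cd68 also had the same order of pairs as the sterol median. The part of these markers and of the mitochondrial share in the results was not tested.

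Sterol genes were higher in knockdowns 2 and 3 than in controls 2 and 3, and close to level between knockdown 1 and control 1. In pairs 2 and 3 each of the 22 sterol genes was higher in the knockdown, against 49.4% and 51.0% of the 13997 genes tested. In pair 1 it was 15 of 22, against 51.8%. The median log2 differences of the sterol arm were 0.08, 0.91 and 0.57 in pairs 1, 2 and 3, and 0.01, -0.01 and 0.01 over all genes tested. The fatty acid arm was higher in 4, 10 and 10 of its 13 genes, with medians of -0.10, 0.47 and 0.27. Members higher in all 3 pairs numbered 15 of 22 in the sterol arm and 2 of 13 in the fatty acid arm, against 22.3% of all genes. Members lower in all 3 pairs numbered 0 and 2, against 19.7%. Over the 3 pairs together, the median log2 difference was 0.50 for sterol genes and 0.18 for fatty acid genes, against 0.00 for all genes, and 22 of 22 and 10 of 13 were above 0, against 50.3% of all genes.

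**Figure D1:**
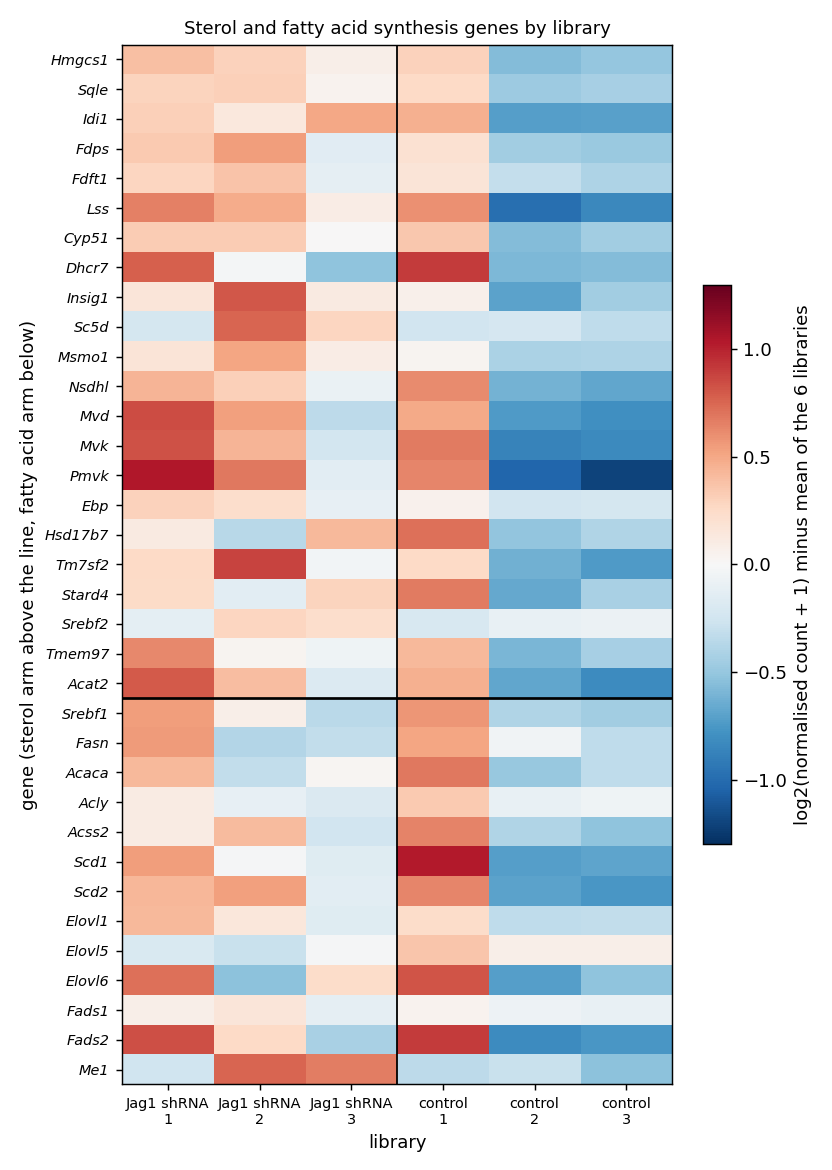
Each row is a gene, with the 22 sterol genes above the line and the 13 fatty acid genes below, and each column a library, Jag1 knockdown left and control right. Colour gives log2(normalised count + 1) minus the gene's mean over the 6 libraries. Controls 2 and 3 are the bluest columns of the sterol block, and control 1 is red for most sterol genes.

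No member passed the test across all genes. In limma on the log2 values 0 of the 35 members passed an adjusted p of 0.05 in either direction (background 0.0% each way), and 3 of 35 had an unadjusted p below 0.05, against 7.29% of all genes. By edgeR the count was likewise 0, with 2 of 35 at an unadjusted p below 0.05, against 7.29% of all genes, and DESeq2 called 0 (background 0.722% higher and 0.522% lower). With the replicate number in the model, limma and edgeR still called 0 members, against 0.0143% of all genes higher in each, and in limma 14 of 35 members had an unadjusted p below 0.05, against 19.5% of all genes. DESeq2 with this replicate term called 4 higher and 0 lower, against 4.57% and 2.58% of all genes tested. Those 4 of 35 were Pmvk, Acat2, Lss and Me1. Without pair 2 the same fit called 0 members, against 0.443% of all genes higher and 0.250% lower, and without pair 3 it called 0, against 0.629% and 0.279%. Without pair 1 it called 20 higher and 0 lower, 16 of 22 sterol genes and 4 of 13 fatty acid genes, against 8.93% of all genes higher and 6.22% lower. In that fit Pmvk rose by 1.39 (SE 0.26, adjusted p = 2.40e-06), Me1 by 1.12 (SE 0.20, adjusted p = 1.25e-06) and Scd2 by 0.92 (SE 0.22, adjusted p = 5.13e-04). It rests on 2 libraries per group and, like those without pair 2 or pair 3, was chosen after seeing the data. Among the values of the 6 libraries, the knockdown lay wholly above the controls for Insig1, Msmo1 and Me1, against 6.29% of all genes, and wholly below for Elovl5, against 5.44%.

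**Figure D2:**
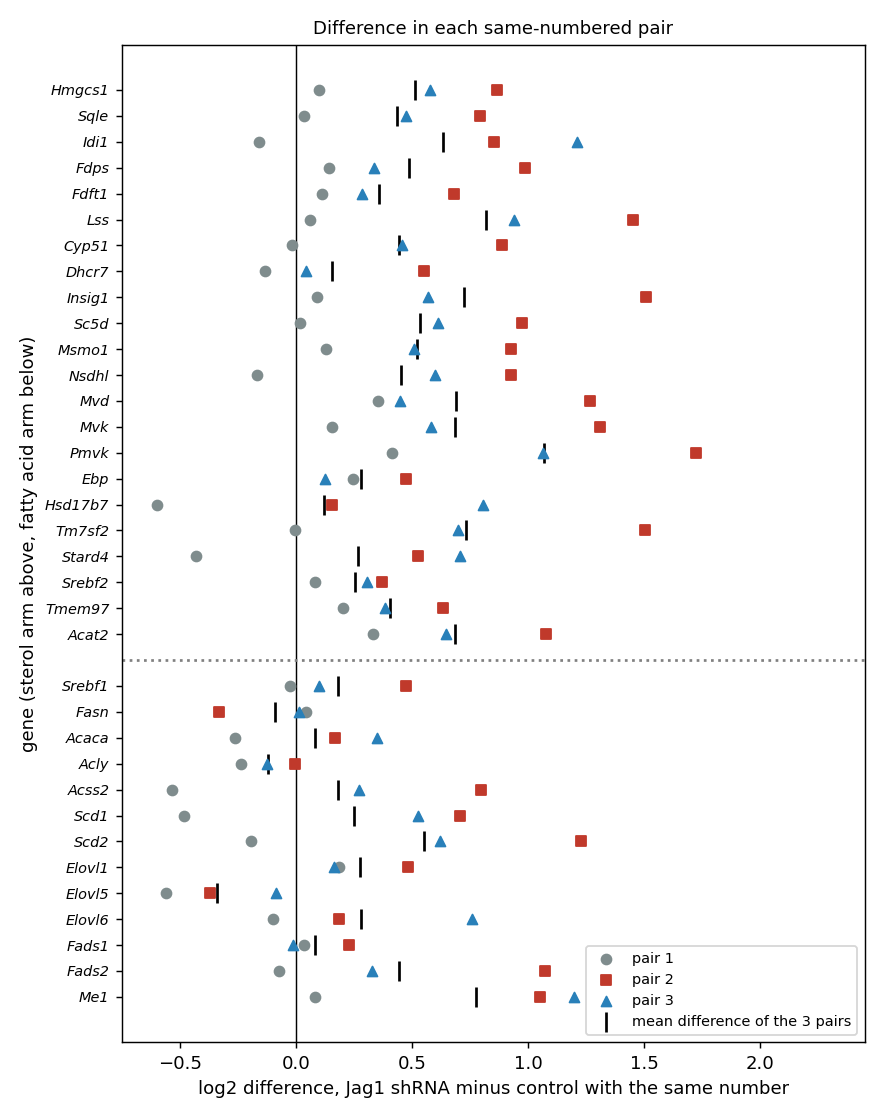
Log2 difference (Jag1 knockdown minus control with the same number, x axis) for each gene (y axis), with 1 symbol per pair and a bar at the mean of the 3 pairs. All sterol genes lie right of 0 in pairs 2 and 3, whereas pair 1 gathers near 0. Among fatty acid genes Acly and Elovl5 lie left of 0 in all pairs.

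The mevalonate part turns acetyl-CoA into farnesyl diphosphate, and its 7 genes had the largest median difference of the sterol steps, 0.68 (0.16, 1.08 and 0.58 in pairs 1, 2 and 3). Pmvk, phosphomevalonate kinase (chromosome 3, 89454541 to 89469013, plus strand), had 2660.1, 2078 and 1173 normalised counts in knockdowns 1, 2 and 3, against 1996, 628 and 561 in controls 1, 2 and 3. Each knockdown was above its own control, yet control 1 was above knockdown 3, so the groups overlapped. The log2 difference was 1.07 (SE 0.54, adjusted p = 0.718 in limma), the highest of all 35 members. With the replicate term it was called by DESeq2 (1.07, SE 0.28, adjusted p = 0.00489) and not by limma (adjusted p = 0.152).

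Acat2, the cytosolic thiolase that starts the pathway, showed 5722, 4356 and 2911 in knockdowns 1, 2 and 3 and 4543, 2064 and 1861 in controls 1, 2 and 3. It was higher in the knockdown of every pair, with overlap between the groups through control 1 (log2 difference 0.69, SE 0.40, adjusted p = 0.769 in limma). DESeq2 with the replicate term called it (adjusted p = 0.0225). Hmgcs1, HMG-CoA synthase and the gene with the element TCACCCCAC shown above, had 7890 in knockdown 1, 7402 in knockdown 2 and 6324 in knockdown 3, against 7369, 4067 and 4233 in controls 1, 2 and 3. Pair 1 was near level, at 107% of control, and pairs 2 and 3 stood at 182% and 149% (log2 difference 0.51, SE 0.26, adjusted p = 0.718 in limma). Idi1, the isomerase of isopentenyl diphosphate, differed in the way its pairs were ordered. It stood at 89.4%, 181% and 232% of control in pairs 1, 2 and 3. Mvd, mevalonate diphosphate decarboxylase, averaged 3448 ± 1315 in the knockdown and 2211 ± 1211 in controls (SD, n = 3 each), and it narrowly missed the call by DESeq2 with the replicate term (adjusted p = 0.052). The remaining kinase Mvk and the synthase Fdps, which makes farnesyl diphosphate, had log2 differences of 0.68 (SE 0.48) and 0.49 (SE 0.27) and were higher in the knockdown of every pair.

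Squalene and its cyclised product lanosterol are made by Fdft1, Sqle and Lss. Lss, lanosterol synthase, was the member of these 3 with the largest difference. It had 4729.9, 4194 and 3222 in knockdowns 1, 2 and 3 and 4539, 1531 and 1679 in controls 1, 2 and 3. Controls 2 and 3 were below every other library, and control 1 stood between knockdowns 1 and 2. The log2 difference was 0.82 (SE 0.43, adjusted p = 0.727 in limma), with an adjusted p of 0.0484 by DESeq2 with the replicate term. Sqle, squalene epoxidase, averaged 6871 ± 694 in the knockdown and 5215 ± 1579 in controls (SD, n = 3 each), and Fdft1, squalene synthase, 6497 ± 1109 and 5090 ± 1117 (SD, n = 3 each). Exons of Fdft1 overlap 774 bases of Ctsb on the other strand, and the library kit does not mark strand, so reads there cannot be told apart. The same holds for shorter overlaps of Cyp51 with Akap9, Srebf1 with Rai1 and Elovl1 with Cdc20. Exons of Fdps overlap 1124 bases of Gm43738 on the same strand. Those of Hmgcs1, Lss and Idi1 overlap 557, 381 and 323 bases of other genes on the opposite strand. The genes that Fdps, Hmgcs1, Lss and Idi1 overlap are not among those of the expression table.

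Of the 8 genes between lanosterol and cholesterol, 0 were called by any of these fits on all 6 libraries. The largest shares of all genes called there were 4.57% higher and 2.58% lower, in DESeq2 with the replicate term. At such shares a count of 0 among 8 genes does not set this step apart. When the libraries numbered 1 were left out, that fit called 5 of these 8 higher, against 8.93% of all genes. Msmo1, the sterol C4-methyl oxidase, had 8423, 10747 and 8059.8 in knockdowns 1, 2 and 3, against 7700.0, 5648 and 5669 in controls 1, 2 and 3. Its groups did not overlap, and knockdown 3 and control 1 were the nearest libraries across the groups (log2 difference 0.52, SE 0.20, adjusted p = 0.668 in limma). Tm7sf2, a sterol C14-reductase, stood at 99.6%, 284% and 162% of control in pairs 1, 2 and 3, and 532 bases of its exons overlap Vps51 on the same strand. Sc5d, the lathosterol oxidase, had 3313, 6554 and 4716 in knockdowns 1, 2 and 3 and 3278, 3337 and 3082 in controls 1, 2 and 3. The 3 controls and knockdown 1 lay close together, and knockdowns 2 and 3 alone stood higher. Cyp51, the lanosterol demethylase, and Nsdhl, a sterol dehydrogenase, had log2 differences of 0.44 (SE 0.27) and 0.45 (SE 0.37). Ebp, the sterol isomerase, was at 0.28 (SE 0.18). The smallest differences of the sterol arm were those of Hsd17b7, a ketosteroid reductase, at 0.12 (SE 0.38), and Dhcr7, which makes cholesterol in the last step, at 0.15 (SE 0.50). Dhcr7 had 6012, 3436 and 2447 in knockdowns 1, 2 and 3 and 6603, 2344 and 2376 in controls 1, 2 and 3, so both libraries numbered 1 stood far above the other 4 in this gene.

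Among regulators of the sterol arm, Insig1, which retains SCAP in the endoplasmic reticulum and is itself an SREBP target, had 6024, 9505 and 5866 in knockdowns 1, 2 and 3, against 5663, 3339 and 3960.1 in controls 1, 2 and 3. The groups did not overlap, and pair 2 gave by far the largest gap, at 285% of control, with 106% and 148% in pairs 1 and 3 (log2 difference 0.72, SE 0.28, adjusted p = 0.668 in limma and 0.230 with the replicate term). Srebf2 had 11114, 14754 and 14302 in knockdowns 1, 2 and 3 and 10514, 11401 and 11554 in controls 1, 2 and 3. Its log2 difference of 0.25 (SE 0.18, adjusted p = 0.808 in limma) was about as small as those of Ebp and Stard4. Stard4, a carrier of cholesterol between membranes, stood at 74.1%, 144% and 163% of control in pairs 1, 2 and 3, and Tmem97, a receptor of the endoplasmic reticulum that binds sterols, averaged 3346 ± 894 in the knockdown and 2596 ± 1047 in controls (SD, n = 3 each).

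**Figure D3:**
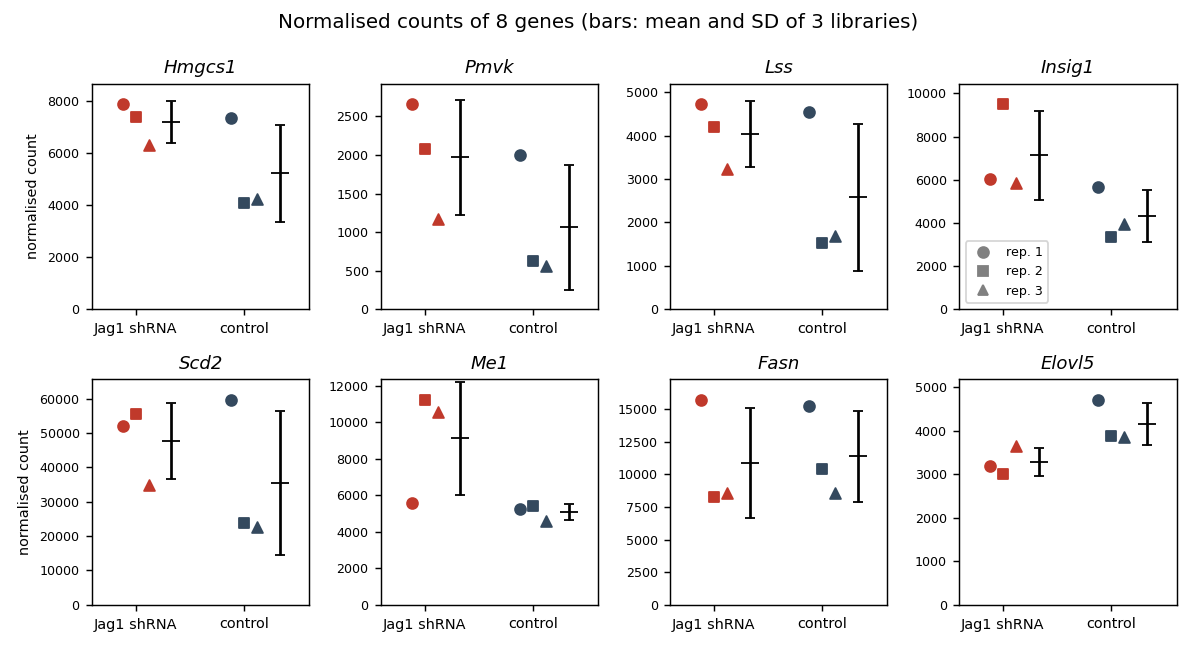
Normalised counts (y axis, from 0) of 8 genes in each library, Jag1 knockdown left and control right, with symbols for the replicate number and bars for the mean and SD of 3 libraries. Control 1 lies within or near the range of the knockdown for Hmgcs1, Pmvk, Lss and Scd2, knockdowns 2 and 3 stand alone for Me1, and replicate 1 stands above the rest for Fasn.

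The fatty acid arm was less uniform. Me1, malic enzyme, which supplies NADPH for lipid synthesis, had 5553, 11229 and 10561 in knockdowns 1, 2 and 3, against 5251, 5422 and 4609 in controls 1, 2 and 3. Its groups did not overlap, with knockdown 1 only just above control 2 and knockdowns 2 and 3 at 207% and 229% of their controls (log2 difference 0.78, SE 0.29, adjusted p = 0.666 in limma). DESeq2 with the replicate term called it (adjusted p = 0.0363). It was the 1 call among the 13 genes of this arm, with 3 among the 22 sterol genes. Over all genes that fit called 4.57% higher and 2.58% lower. Acly, ATP-citrate lyase, which makes cytosolic acetyl-CoA, was lower in every pair, at 84.8%, 99.8% and 91.6% of control, a log2 difference of -0.12 (SE 0.19). Acss2, which makes acetyl-CoA from acetate, stood at 0.18 (SE 0.36), with its pairs at -0.53, 0.80 and 0.27. Exons of Acss2 overlap those of Ggt7 and Gss on the opposite strand.

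The 2 genes of palmitate synthesis had values near their controls on average. Fasn, fatty acid synthase, had 15718, 8254 and 8615 in knockdowns 1, 2 and 3 and 15269, 10387 and 8546 in controls 1, 2 and 3. Both replicate 1 libraries were far above the rest, and within pairs Fasn stood at 103%, 79.5% and 101% of control (log2 difference -0.09, SE 0.33, adjusted p = 0.973 in limma). Acaca, acetyl-CoA carboxylase, was at 0.08 (SE 0.36). Srebf1, their regulator, had 7457, 5404 and 3996 in knockdowns 1, 2 and 3, against 7599.8, 3894 and 3729.7 in controls 1, 2 and 3. Its values too were highest in replicate 1, and its log2 difference was 0.18 (SE 0.35, adjusted p = 0.941 in limma).

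Desaturases put double bonds into fatty acids. Scd2, a stearoyl-CoA desaturase, was the most abundant member per length of exon, at 8697 normalised counts per kb in the knockdown and 6472 per kb in controls, while its relative Scd1, also on chromosome 19, had 1862 and 1821 per kb. Scd2 had 52072, 55563 and 34928 in knockdowns 1, 2 and 3, against 59603, 23737 and 22742 in controls 1, 2 and 3. Pair 1 thus went the other way from pairs 2 and 3, at 87.4% against 234% and 154% of control (log2 difference 0.55, SE 0.42, adjusted p = 0.827 in limma). Scd1 was similar in order, with 71.5%, 163% and 144% of control in pairs 1, 2 and 3. Scd1 and Scd2 are close relatives, and how reads that match both were counted is not given in the sources used here. Fads2 and Fads1, which desaturate polyunsaturated fatty acids and both lie on chromosome 19, had different values in pair 2. Fads2 stood at 95.0%, 210% and 126% of control in pairs 1, 2 and 3, whereas Fads1 stayed within 99.1% to 117%, and the difference between the 2 genes was not tested.

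Elongases lengthen fatty acids by a pair of carbons. Elovl5, which acts on polyunsaturated chains, had 3200.3, 3004 and 3648 in knockdowns 1, 2 and 3, against 4715, 3891 and 3872 in controls 1, 2 and 3. It was the 1 member whose knockdown values all lay below the controls (log2 difference -0.34, SE 0.16, adjusted p = 0.702 in limma and 0.261 with the replicate term). Elovl6, which acts on palmitate, and Elovl1, which acts on very long chains, both had a log2 difference of 0.28, with SE 0.48 and SE 0.23. Elovl6 had its largest gap in pair 3 (0.76) and Elovl1 in pair 2 (0.48).

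Set side by side, the sterol arm exceeded the fatty acid arm by 0.19, 0.43 and 0.30 in median log2 difference in pairs 1, 2 and 3. These gaps rest on the same libraries and on members chosen with earlier results known, and were not tested. The mean level of the sterol arm, with each gene centred on its 6 libraries, was 0.40, 0.36 and 0.01 in knockdowns 1, 2 and 3 and 0.36, -0.57 and -0.55 in controls 1, 2 and 3. For the fatty acid arm it was 0.33, 0.05 and -0.09 in knockdowns 1, 2 and 3 and 0.49, -0.38 and -0.41 in controls 1, 2 and 3. In both arms controls 2 and 3 were the lowest libraries and control 1 stood with knockdown 1. By gene, controls 2 and 3 were both below the other 4 libraries for 20 of 22 sterol genes (all but Sc5d and Srebf2) and 7 of 13 fatty acid genes, against 19.5% of all genes. The pair 1 difference was below both others for 21 of 22 sterol genes (all but Ebp) and 10 of 13 fatty acid genes, against 37.5% of all genes. The pair 2 difference was above that of pair 3 for 19 of 22 and 8 of 13, against 50.7%. These orders were chosen for counting after the values were seen.

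**Figure D4:**
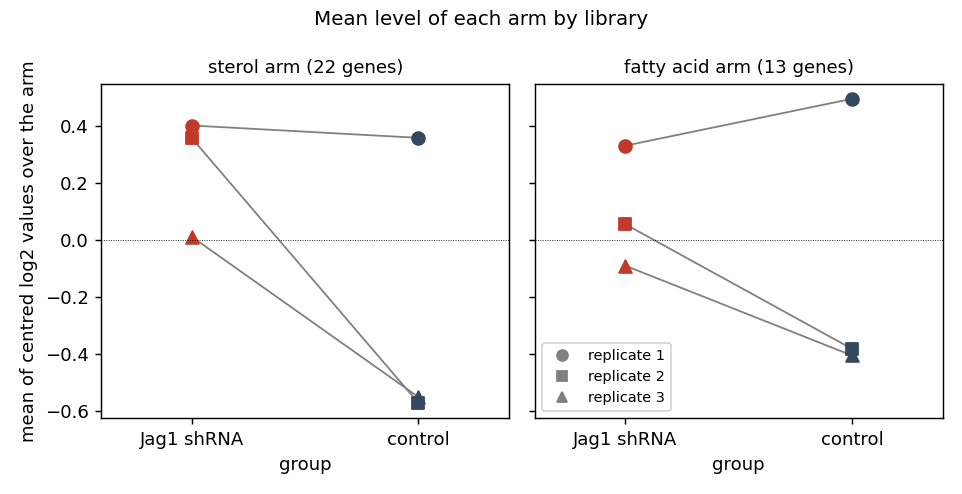
Mean over the genes of each arm of log2(normalised count + 1), centred per gene on the 6 libraries (y axis), in Jag1 knockdown (left) and control (right), with lines joining libraries of the same number. The line of replicate 1 is nearly flat for the sterol arm and slopes up towards the control for the fatty acid arm, and the other lines slope down towards the control.

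Both arms also differed by replicate number. The mean of both replicate 1 libraries was above that of the other 4 for 20 of 22 sterol genes and 12 of 13 fatty acid genes, against 49.9% of all genes, with median log2 gaps of 0.55 and 0.80. Both replicate 1 libraries lay above all other 4 for 7 sterol and 8 fatty acid genes, against 23.7% of all genes, and below them for Srebf2 alone, against 23.3%. The largest such gaps were those of Fads2 (1.31) and Dhcr7 (1.27), while Me1 (-0.45), Sc5d (-0.36) and Srebf2 (-0.26) were lower in replicate 1. What a number stands for is not given in the labels.

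Scaling by the spike-in RNAs instead of the authors' size factors shifted all genes by pair, to medians of -0.52, -0.68 and 0.68 in pairs 1, 2 and 3, and to -0.18 over the 3 pairs. On that scale the sterol arm had medians of -0.45, 0.23 and 1.24, and the fatty acid arm -0.63, -0.20 and 0.94. Sterol genes higher in the knockdown then numbered 0, 16 and 22 of 22 in pairs 1, 2 and 3, and fatty acid genes 0, 5 and 13 of 13. The sign of the median thus depended on the scaling for the sterol arm in pair 1 and the fatty acid arm in pair 2. It was kept for the sterol arm in pairs 2 and 3 and the fatty acid arm in pairs 1 and 3. Relative to the median of all genes the arms were 0.50 and 0.18 above it over the 3 pairs. Spike-in scaling divides every gene of a library by the same factor, so this position could hardly change. It is therefore no check of the difference between the arms and all genes.

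Other genes of lipid metabolism were listed by pathway, and up to 3 genes with the largest limma difference are named from each list. The calls below are by DESeq2 with the replicate term, which called 4.57% of all genes higher and 2.58% lower, and the counts of 0 or 1 call a list are to be read against these shares. Without pair 2, and likewise without pair 3, only Ppard of these lists was called. DESeq2 with the replicate term called 0 of 13 tested further genes of the isoprenoid and sterol pathways, whose median log2 difference was 0.08. Pdss1, of ubiquinone synthesis, was at 0.43 (SE 0.58) in limma. The genes of SREBP processing had a median of -0.10 over 10 tested genes, with 0 called. Mbtps1, the site-1 protease, was at -0.35 (SE 0.16), the ubiquitin ligase Rnf139 at -0.31 (SE 0.18) and Insig2 at 0.31 (SE 0.41).

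Of 12 genes of cholesterol uptake and storage, 0 were called higher and 1 lower, against 4.57% and 2.58% of all genes. Soat1, which esterifies cholesterol for storage, fell by 0.54 in DESeq2 with the replicate term (SE 0.17, adjusted p = 0.0252), with 3529 ± 162.1 in the knockdown and 5145 ± 364 in controls (SD, n = 3 each), and limma with that term did not call it (adjusted p = 0.150). Nceh1, a cholesteryl ester hydrolase, and Lrp8, a lipoprotein receptor, were at -0.52 (SE 0.26) and 0.57 (SE 0.37) in limma. Of 6 tested genes around the oxysterol receptor LXR, 0 were called. Abca1, a cholesterol exporter, was at -1.07 (SE 1.24), Cyp27a1, which makes an oxysterol, at -0.63 (SE 0.33), and the receptor gene Nr1h3 at -0.49 (SE 0.39).

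In the same fit, 1 of 21 further fatty acid synthesis genes rose and 1 fell. These calls, and those of the next lists, are to be read against 4.57% of all genes higher and 2.58% lower. Mlxipl, a glucose-responsive activator of lipid synthesis, rose by 1.49 (SE 0.47, adjusted p = 0.028 in DESeq2 with the replicate term) from a low level, with 132, 104 and 56.5 in knockdowns 1, 2 and 3 and 70.4, 25.3 and 18.7 in controls 1, 2 and 3. Acsl4, which activates polyunsaturated fatty acids and is named after its values were seen, fell by 0.84 (SE 0.23, adjusted p = 0.00882 in that fit). Scd3 and Acacb, both low, were at 1.65 (SE 1.05) and 1.37 (SE 0.81) in limma. Among 19 genes of glycerolipid synthesis, Lpin3, a phosphatidate phosphatase, rose by 1.02 (SE 0.32, adjusted p = 0.0262) and Agpat1, an acyltransferase, fell by 0.69 (SE 0.19, adjusted p = 0.00795), each by DESeq2 with the replicate term. Pnpla3 was at 1.24 (SE 0.40) in limma and was not called. Among 20 genes of fatty acid oxidation, Slc25a20, the carnitine carrier, rose by 0.68 (SE 0.21, adjusted p = 0.0213) and Ppard, a nuclear receptor for fatty acids, fell by 1.16 (SE 0.20, adjusted p = 3.06e-06) in that fit. Acadl, an acyl-CoA dehydrogenase, was at 0.47 (SE 0.33) in limma. Ppard had 1973, 3131 and 1952 in knockdowns 1, 2 and 3 and 4400.1, 5567 and 5519 in controls 1, 2 and 3, with no overlap and a gap in every pair. Its pairs 1, 2 and 3 stood at 44.8%, 56.2% and 35.4% of control, and DESeq2 without the replicate term called it too (adjusted p = 0.0143). Across all these lists limma and edgeR called 0 genes, with or without the replicate term.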

How the data were processed

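The authors deposited 1 signal value per gene and library, named normalised counts, and the values show that the reads of a library were divided by its size factor. The submitters' processing notes name Trimmomatic, STAR 2.5.2b, DESeq2 1.32.0 and the build GRCm38, and the counting tool and annotation are not given in the sources used here. The 6 deposited tables were identical and 1 was used. Whole reads were recovered, with 100% of values within 0.001 of a whole read. Identifiers were matched to GENCODE M21 (GRCm38). Groups came from sample titles.

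The test was limma-trend (limma 3.58.1, R 4.3.3) on log2(normalised count + 1) for 13997 genes with at least 10 normalised counts in at least 3 libraries, which all 35 members passed, with Benjamini-Hochberg adjustment over all of them. Alternatives were edgeR 4.0.16 and DESeq2 1.42.0 on recovered reads, a replicate term, spike-in scaling, other pseudocounts and filters, and fewer libraries. Scripts were tested on simulated data. Deviations from group means correlated at r = 0.68, 0.57 and 0.44 for libraries numbered 1, 2 and 3, each above 0.1, so equal numbers were treated as pairs, although knockdown 2 with control 3 (0.38) and knockdown 3 with control 2 (0.37) passed too. The replicates are called biological in the design text. P-values measure the spread between these libraries. In bulk RNA, fewer cells of a type and less RNA per cell cannot be told apart. Members, gene lists and tests were chosen with earlier results of these data known. Named genes were all members, Jag1, and the 3 genes with the largest limma difference in each further list, of which some are not reported here. Each member had at least 426 normalised counts in every library.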

Additional observations from a re-analysis of the deposited data

How the results depend on the processing

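Across the 17 alternatives 25 of 35 members kept the sign of their log2 difference, 20 of 22 in the sterol arm. The sterol median stayed between 0.32 with spike-in scaling and 0.72 without control 1 over these alternatives. The fatty acid median was 9.35e-04 with spike-in scaling and ranged from 1.4e-05 to 0.51 when single libraries were left out, the highest without control 1.

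Over all genes limma called 0 higher and 0 lower, DESeq2 101 and 73, DESeq2 with the replicate block 640 and 361, and limma and edgeR with the block 2 and 0 each. Replicates 2 and 3 only gave 846 and 500, and spike-in scaling 77 and 39. Leaving out single libraries gave 0 to 210 higher and 0 to 84 lower, the most without control 1. DESeq2 with the block called 1250 higher and 870 lower without pair 1, 62 and 35 without pair 2, and 88 and 39 without pair 3. Of the 35 members, limma called 0 higher and DESeq2 with the block 4, against 0 and 640 of the 13997 genes tested. On replicates 2 and 3 only, with 2 libraries per group, limma called 6 (Hmgcs1, Idi1, Lss, Pmvk, Scd1 and Me1), against 846 of 13997. Leaving out single libraries gave 0 to 1 member, the 1 being Lss without control 1, against 210 of 13997 in that fit. DESeq2 with the block called 20 members without pair 1, against 8.93% of all genes higher. It called 0 without pair 2 or pair 3, against 0.443% and 0.629%. Jag1 was called by DESeq2 with the block (-1.02, adjusted p = 0.00628). The pairing changed no other call of a member or of Jag1. The cause of these differences was not tested.

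With spike-in scaling Dhcr7 was at -0.028, Hsd17b7 at -0.058, Acaca at -0.10, Acss2 at -0.0016 and Fads1 at -0.10. Leaving out single libraries moved Dhcr7 between -0.20 and 0.65, Hsd17b7 between -0.10 and 0.51, Srebf1 between -0.046 and 0.51, Fasn between -0.39 and 0.14, Acaca between -0.14 and 0.45, Acly between -0.21 and 0.018, Acss2 between -0.038 and 0.54, Scd1 between -0.048 and 0.83, and Elovl6 between -0.0066 and 0.76.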
